A study of Arabidopsis thaliana with 6 samples.

Results

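The genes described here were abundant in the wild-type inflorescence stem of *Arabidopsis thaliana* and lower in stems that overexpress *CLE41*. They were chosen by measured intensity: a probe set had to reach an intensity of 512 on each of the 3 wild-type arrays, and its highest 35S::CLE41 intensity had to be at most 50% of its lowest wild-type intensity, so the rule set the level, the direction and the smallest size of the difference. Of 22746 probe sets 3208 met the wild-type level, and 79 of these, or 2.46%, also met the gap. The beta-tubulin gene *TUB1* was left out by the rule, no probe set named as an XTH gene met it, and 78 remained. By the probe annotation, 39 of them belong to 1 gene, 2 to more than 1 gene, and 37 have no entry. The 37 could not be screened for TUB and XTH names. Of all 22746 probe sets 8730 have no entry. Below, a gene is called measured, or said to have a probe set of its own, only where that annotation names it. Other genes may be read by probe sets with no entry. The 39 genes, out of 13356 with a probe set of their own, are the members. Because the rule used all 6 arrays, the differences of the members are given as descriptions, with no test. No p-value of a member is given.

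The study compared wild-type plants of ecotype Columbia with plants of the same background that carry 35S::CLE41, a transgene that drives *CLE41* from a viral promoter active in most tissues. Each genotype had 3 samples, each on 1 array. The plants were 5 weeks old and grew in days of 16 h of light and 8 h of darkness, and RNA was taken from the lower stem, leaving out 1 cm next to the rosette. The labels do not say which transgenic line was used, nor that the samples came from separate plants, so the spread between arrays may be technical.

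As background, *CLE41* encodes the TDIF peptide, which phloem cells secrete and which the receptor kinase PXY perceives in the vascular cambium, where it promotes division, orients the division plane and holds back xylem differentiation. When the peptide is made throughout the stem, the ordered files of vascular cells are known to be lost and stems are known to stay short. An inflorescence stem holds epidermis, cortex, starch sheath, vascular bundles, fibres and pith, and whole stem tissue was measured. In such tissue fewer cells of a type and less RNA per cell cannot be told apart.

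*CLE41* itself read 819, 684 and 1012 in wild-type replicates 1, 2 and 3 and 2461, 3402 and 2664 in 35S::CLE41 replicates 1, 2 and 3 (limma adjusted p = 0.0013; 3.40-fold higher). Array medians lay between 91.9 and 101. The markers fixed for this tissue were thinly named by the probe annotation, and others may be read by probe sets with no entry. The cuticle and epidermis list had 1 measured gene, *WSD1*. This gene read 389 to 759 in wild type and 52.0 to 71.2 in 35S::CLE41, an 8.45-fold lower level. The 4 measured stomatal genes summed to between 173 and 236 in wild type and between 132 and 145 in 35S::CLE41, and 4 nuclear photosynthesis genes to between 25306 and 30399 and between 22602 and 23769. For these 3 lists the sums were lower in 35S::CLE41 with no overlap, the members' direction, though the first sum is 1 gene. Gene by gene, *WSD1*, *STOMAGEN*, *SBPASE* and *PRK* did not overlap. The genotypes overlapped for the stomatal genes *FMA*, *SPCH* and *MUTE* and the photosynthesis genes *LHCB4.1* and *RCA*. The share of all probe sets without overlap is not given, so nothing is read from the sums. The sums went the other way for 4 xylem and secondary wall genes, at 2025 to 4738 in wild type and 4087 to 6503 in 35S::CLE41, and for 2 phloem genes, at 138 to 155 and 144 to 196, with overlap in both. The stomatal markers *SPCH* and *MUTE* lay in the dimmest 40% of probe sets on every array. No marker of the endodermis or starch sheath was named by the annotation with a probe set of its own. The part of these levels in the members' differences was not tested.

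The SE of a member's log2 difference, from the fit across all probe sets, lay between 0.089 (AT3G16850) and 0.40 (AT5G37970), with n = 3 in each genotype. Over the 39 members the group means differed by 2.12-fold to 9.13-fold, with a median of 3.46-fold (ratios of geometric means, wild type over 35S::CLE41). Over all 3208 probe sets at the wild-type level the median log2 difference was -0.09. Over all 22746 probe sets limma called 3364 (14.8%) at an adjusted p of 0.05, of which 1561 (6.86%) were lower in 35S::CLE41, or 1975 (8.68%) with the arrays shifted to 1 median. At the wild-type level, 581 (18.1%) were lower and 201 (6.27%) were higher in 35S::CLE41, or 681 (21.2%) and 150 (4.68%) with that shift. The members were chosen on the same contrast, so nothing is read from these shares. The gap in the other direction, 35S::CLE41 above wild type, was met by 6 (0.187%) of the 3208. Of 3290 probe sets that reached 512 on every 35S::CLE41 array, 32 (0.973%) had a highest wild-type value of at most 50% of the lowest 35S::CLE41 value.

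**Figure D1:**
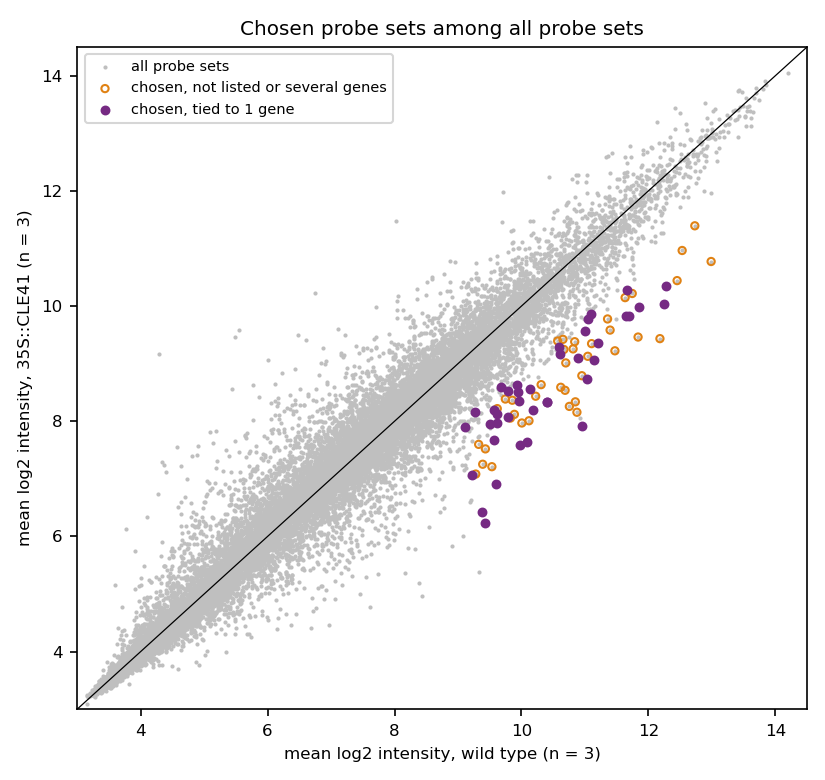
Mean log2 intensity of each probe set in wild type (x axis, n = 3) and 35S::CLE41 (y axis, n = 3), with the line of equal values. The 39 members are filled and the 39 chosen probe sets without a gene of their own are open circles, and both kinds lie below the line between wild-type means of 9.11 and 12.99.

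The 8 members that the tables used here name beyond a locus are described first, by role. The other 31 are known in those tables by locus alone, so no function is given for them. The intensity of a probe set also depends on its probes, so ranks by intensity, percentiles and array medians are places among probe sets, not amounts of RNA, and no member's level is set against another's.

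Among signalling genes, *RALFL34* (AT5G67070) encodes a secreted peptide of the RALF family, whose members bind receptor kinases that monitor the cell wall, and takes part in lateral root initiation. It read 2106, 2338 and 2150 in wild type and 999, 960 and 837 in 35S::CLE41, a 2.36-fold difference with little spread in either genotype. Its measured relatives went different ways. *RALFL33* read 733, 677 and 716 against 370, 354 and 458, a log2 difference of -0.85 (SE 0.12), while *RALFL32* read 858, 736 and 690 against 1590, 1705 and 1415, a log2 difference of 1.05 (SE 0.12). Neither gene's groups overlapped, in opposite directions. The share of all probe sets without overlap is not given, so nothing is read from this. Of the 5 measured RALFL genes at the wild-type level, *RALFL22* and *RALFL24* were lower too, at -0.57 (SE 0.14) and -0.44 (SE 0.14). *RALFL32* was the only one of them that was higher. Over the 11 measured RALFL genes the median log2 difference was -0.0031. That median includes *RALFL18*, *RALFL25*, *RALFL26*, *RALFL27* and *RALFL28*, which read between 12.9 and 23.4 on all arrays, far below the array medians. The relatives of members were looked up after the members were known and are given as values only. Relatives that the annotation does not name are left out, here and in the families below.

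*TCP15* (AT1G69690) encodes a class I TCP transcription factor that acts on cell proliferation and growth. It read 586, 1009 and 729 in wild type and 184, 207 and 222 in 35S::CLE41, a 3.70-fold difference. It was the one member named as a transcription factor, and its wild-type arrays spread more than its 35S::CLE41 arrays, with replicate 2 the high one. The annotation named no other TCP gene with a probe set of its own, though others may be read by probe sets with no entry.

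The transporter gene among the members was AT2G26690, listed as NPF6.2 of the nitrate and peptide transporter family and known as a nitrate transporter of the leaf petiole. It read 1146, 1014 and 863 in wild type and 312, 318 and 352 in 35S::CLE41, a 3.06-fold difference. The wild-type array that stood highest was replicate 1. Of the 11 measured NPF genes it had the lowest log2 difference, -1.62, followed by AT3G21670 (NPF6.4) at -1.06 (SE 0.17), which read 411, 394 and 443 against 258, 186 and 164 and so lay under the wild-type level of the rule. *GTR1* and *GTR2*, which encode glucosinolate transporters, had log2 differences of -0.70 (SE 0.10) and -0.39 (SE 0.13). At the other end, AT1G59740 (NPF4.3) had a log2 difference of 1.40 (SE 0.27), from 63.9, 34.3 and 74.3 to 162, 150 and 123.

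*EXLA2* (AT4G38400) encodes an expansin-like protein, of a group related to the wall-loosening expansins. It read 728, 818 and 814 in wild type and 281, 221 and 350 in 35S::CLE41, a 2.81-fold difference, and its 35S::CLE41 arrays spread more than its wild-type arrays. *EXLA1* read 1284, 1061 and 1447 against 708, 275 and 777, a log2 difference of -1.24 (SE 0.36). It was not chosen because its highest 35S::CLE41 array came too close to its lowest wild-type array. For both genes 35S::CLE41 replicate 2 was the lowest array. *EXLA3* had a log2 difference of 0.58 (SE 0.23), so the A-type genes did not share a direction, and the 2 measured B-type genes were at 0.0028 and 0.09.

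A pair of members encode serine carboxypeptidase-like proteins, relatives of proteases some of which act as acyltransferases in secondary metabolism. *scpl26* (AT2G35780) read 675, 901 and 718 in wild type and 292, 262 and 331 in 35S::CLE41, a 2.58-fold difference. *SCPL27* (AT3G07990) read 779, 829 and 853 against 388, 387 and 385, a 2.12-fold difference. The 35S::CLE41 arrays of *SCPL27* agreed within a factor of 1.01, and the gene lay close to the limit of the rule. The annotation names 29 measured genes of the family, with a median log2 difference of -0.04. Of the 6 at the wild-type level, *scpl35* also lay lower in 35S::CLE41, at -0.78 (SE 0.09), while *SCPL45*, *scpl48* and *SCPL49* lay higher, at 0.90 (SE 0.12), 0.69 (SE 0.22) and 0.27 (SE 0.13). The highest value of the family was 1.40 (SE 0.23) for *scpl31*, which read 424, 245 and 300 in wild type and 682, 1068 and 786 in 35S::CLE41.

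**Figure D2:**
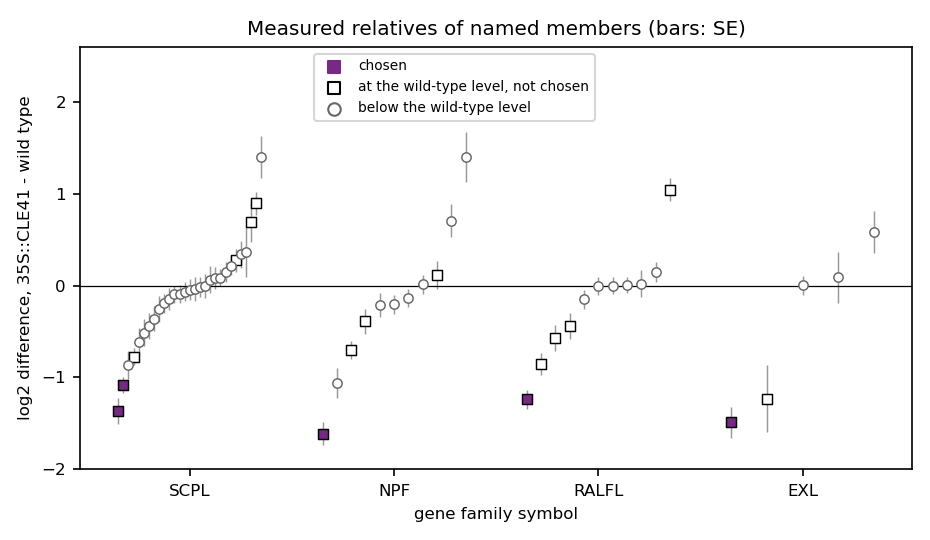
Log2 difference (35S::CLE41 minus wild type, y axis) of each measured gene of the SCPL, NPF, RALFL and EXL families (x axis), with bars for the SE of the limma fit. Filled squares are members, open squares are other genes at the wild-type level and circles are genes below it; each family holds values on both sides of 0, from -1.62 to 1.40.

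*ACT11* (AT3G12110) encodes an actin, best known from reproductive tissues such as pollen and ovules. It read 892, 987 and 780 in wild type and 386, 332 and 388 in 35S::CLE41, a 2.40-fold difference. *ACT12*, the other actin gene that the annotation names with a probe set of its own, read between 17.0 and 19.4 on all arrays, far below the array medians. Further actin genes may be read by probe sets with no entry, so these values do not describe the family. *DRT100* (AT3G12610) is named for DNA damage repair and toleration, after its isolation by complementation of a bacterial repair mutant. It read 3598, 3789 and 2676 in wild type and 923, 935 and 860 in 35S::CLE41, a 3.66-fold difference, and it was the named member with the largest gap between the lowest wild-type and the highest 35S::CLE41 array, 2.86-fold.

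Among members known by locus, AT3G54400 had the widest gap. It read 582, 951 and 581 in wild type and 75.1, 86.6 and 65.0 in 35S::CLE41, a 9.13-fold difference of means and a gap of 6.71-fold. AT5G45950 followed, with 556, 961 and 557 against 77.2, 81.7 and 99.5, a 7.80-fold difference. In both genes wild-type replicates 1 and 3 nearly coincided, replicate 2 stood above them, and the 35S::CLE41 arrays ended below or near the array medians.

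AT5G37970 read 1628, 2968 and 1640 in wild type and 433, 227 and 144 in 35S::CLE41, an 8.25-fold difference. Its 35S::CLE41 arrays differed by up to 3.02-fold, the widest spread of any member in that genotype. AT1G09750 read 609, 1190 and 644 against 95.4, 108 and 170, a 6.43-fold difference, and AT4G29020 read 827, 2014 and 768 against 168, 235 and 199, a 5.46-fold difference. Wild-type replicate 2 was the high array in these genes too, and in AT4G29020 it lay 2.62-fold above the lowest wild-type array.

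In other members with wide gaps replicate 2 did not stand apart. AT3G07010 read 1037, 1164 and 858 in wild type and 234, 188 and 164 in 35S::CLE41, a 5.24-fold difference. AT5G24580 read 606, 616 and 565 against 158, 129 and 118, a 4.44-fold difference. AT4G16980 read 1171, 1396 and 1526 against 308, 337 and 325, a 4.19-fold difference. In these genes the arrays of a genotype differed by at most 1.43-fold. AT4G16980 was the one member with a second probe set of its own, which read 23.3, 38.5 and 41.4 in wild type and 24.9, 22.6 and 20.8 in 35S::CLE41; the groups overlapped there, at intensities far under those of the first.

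AT1G25230 read 1429, 1369 and 1263 in wild type and 266, 368 and 344 in 35S::CLE41, a 4.19-fold difference. AT1G12845 read 954, 1517 and 1073 against 291, 291 and 300, a 3.94-fold difference. Its 35S::CLE41 arrays were nearly equal and its wild-type arrays were not. AT2G14900 read 2080, 2705 and 1614 against 452, 297 and 567, a 4.92-fold difference, and AT5G07030 read 1933, 3347 and 1766 against 514, 634 and 475, a 4.20-fold difference. In both the replicate 2 array was the highest of the wild type.

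**Figure D3:**
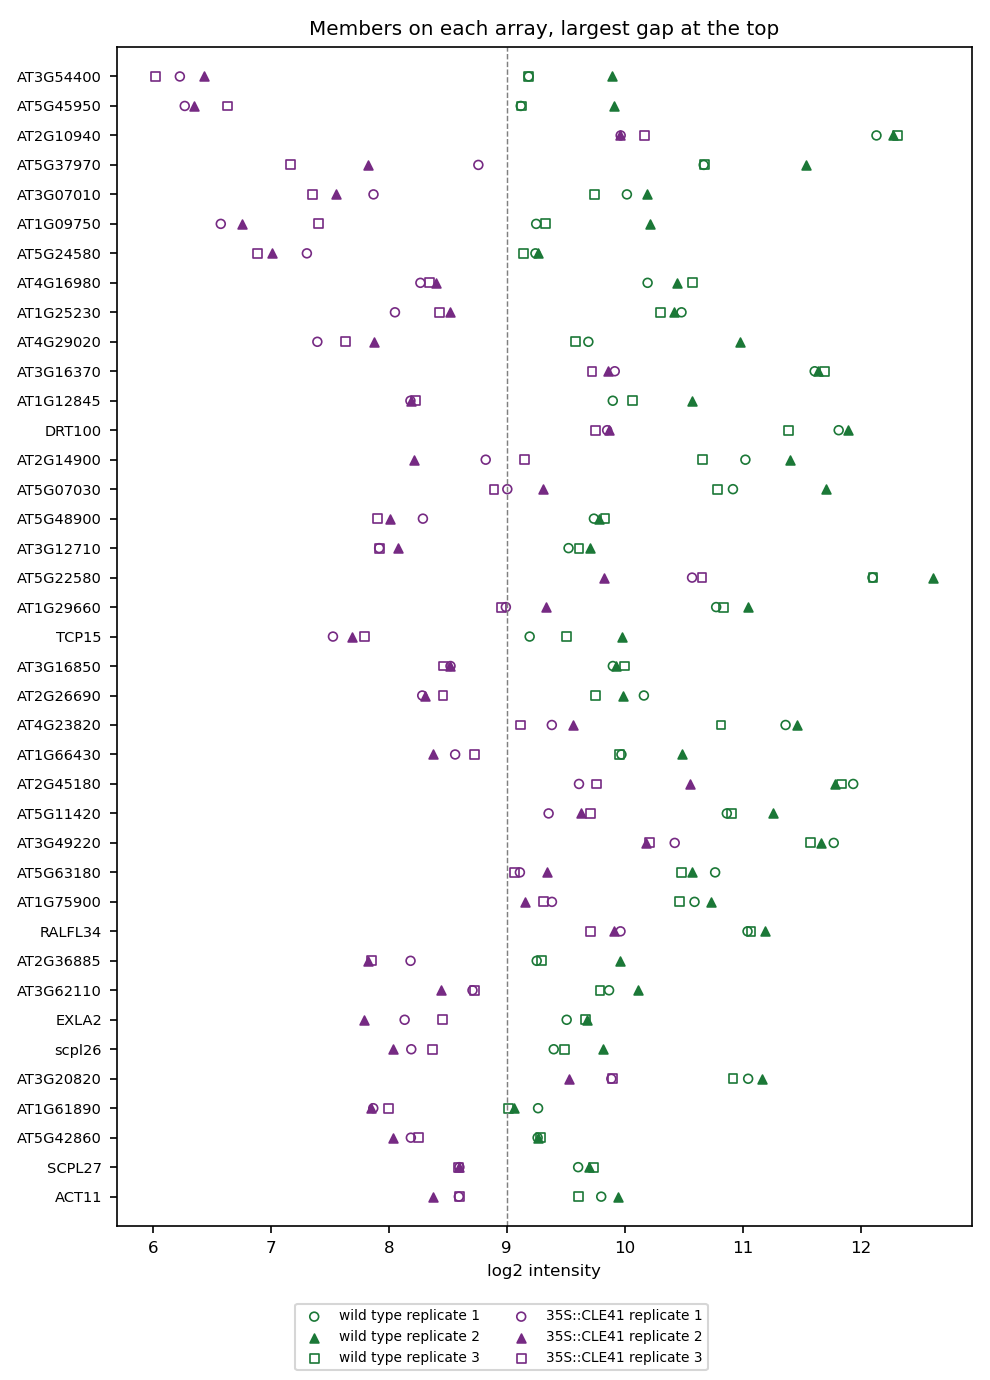
Log2 intensity (x axis) of each of the 39 members (y axis, widest gap at the top) on the 3 wild-type arrays (green) and the 3 35S::CLE41 arrays (purple), with a marker shape for each replicate number and a dashed line at the wild-type level of the rule, 512. AT3G54400 and AT5G45950 show the widest gaps, and the filled green triangles of wild-type replicate 2 lie furthest right for 26 members.

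The members with the highest wild-type intensities kept substantial signal in 35S::CLE41. AT5G22580 read 4388, 6265 and 4403 in wild type and 1521, 907 and 1612 in 35S::CLE41, a 3.79-fold difference. AT2G10940 read 4492, 4938 and 5090 against 1000, 997 and 1149, a 4.62-fold difference that was even across arrays. AT2G45180 read 3918, 3526 and 3659 against 783, 1505 and 869, a 3.67-fold difference in which 35S::CLE41 replicate 2 was the high array, whereas in AT5G22580 the same array was the low one.

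AT3G49220 read 3495, 3239 and 3048 in wild type and 1373, 1161 and 1187 in 35S::CLE41, a 2.63-fold difference. AT3G16370 read 3125, 3179 and 3312 against 966, 927 and 845, a 3.52-fold difference. In neither did an array stand apart from the others of its genotype. AT4G23820 read 2634, 2809 and 1802 against 667, 754 and 555, a 3.63-fold difference, and AT3G20820 read 2114, 2296 and 1934 against 946, 738 and 953, a 2.42-fold difference.

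The remaining 11 members were AT5G48900, AT3G12710, AT1G29660, AT3G16850, AT1G66430, AT5G11420, AT5G63180, AT1G75900, AT2G36885, AT3G62110 and AT1G61890. They read between 518 and 2449 in wild type and between 227 and 836 in 35S::CLE41, with differences of 2.31-fold to 3.46-fold.

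The limit of the rule fell within a continuum. Just inside it were AT5G42860, *SCPL27* and *ACT11*, whose lowest wild-type value was 2.01 times the highest 35S::CLE41 value for each. AT5G42860 read 614, 614 and 626 in wild type and 292, 263 and 305 in 35S::CLE41. Just outside were AT2G30930, AT5G61660 and AT5G47550, with ratios of 1.99, 1.98 and 1.98. AT5G61660 read 2912, 3915 and 2081 against 921, 1050 and 683, so a gene with a wider difference of means than *ACT11* was left out because its arrays spread more.

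Most members stayed above the array medians in 35S::CLE41, though no detection call was used to tell signal from background. On every 35S::CLE41 array 36 of the 39 lay above that array's median, the exceptions being AT3G54400, AT5G45950 and AT1G09750. The rule asked for 512 or more in wild type, against array medians of 91.9 to 101, so it fixed this in part. All 3 35S::CLE41 arrays stayed at or above 512 for 12 members and lay under it for 24, with 3 on both sides. The median member stood at the 93.3 percentile of all probe sets by its wild-type mean and at the 77.5 percentile by its 35S::CLE41 mean.

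The arrays within a genotype did not contribute evenly. Wild-type replicate 2 was the highest wild-type array for 26 of 39 members, replicate 1 for 6 and replicate 3 for 7. Over all 3208 probe sets at the wild-type level replicate 2 was the highest for 43.3%. It lay above the mean of the other wild-type arrays by a median of 0.24 on the log2 scale among members, against 0.023 among those 3208. It exceeded that mean by at least 1.5-fold in 8 members, AT3G54400, AT5G37970, AT5G45950, AT1G09750, AT4G29020, AT5G07030, *TCP15* and AT2G36885. The first 5 of these were also the 5 members with the largest differences of means.

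Leaving out wild-type replicate 2 made the difference smaller in 31 of 39 members, and the median went from 3.46-fold to 3.28-fold. The largest change was in AT4G29020, from 5.46-fold to 4.01-fold. AT3G54400 went from 9.13-fold to 7.75-fold, AT5G37970 from 8.25-fold to 6.76-fold and AT5G45950 from 7.80-fold to 6.50-fold, and these remained the 3 largest. Among the 8 members with a high replicate 2 the median was 5.95-fold with that array and 4.60-fold without it; among the other 31 it was 3.06-fold and 3.02-fold. Since replicate 2 was the lowest wild-type array for only 1 member, it seldom set the gap that the rule used. In 35S::CLE41 the highest array, which the rule used, was replicate 3 for 17 of 39 members and replicates 1 and 2 for 11 each. Over the 3208 probe sets replicate 3 was the highest for 28.0%, the least often of the 3. The lowest array of a member was replicate 1 for 11, replicate 2 for 14 and replicate 3 for 14.

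**Figure D4:**
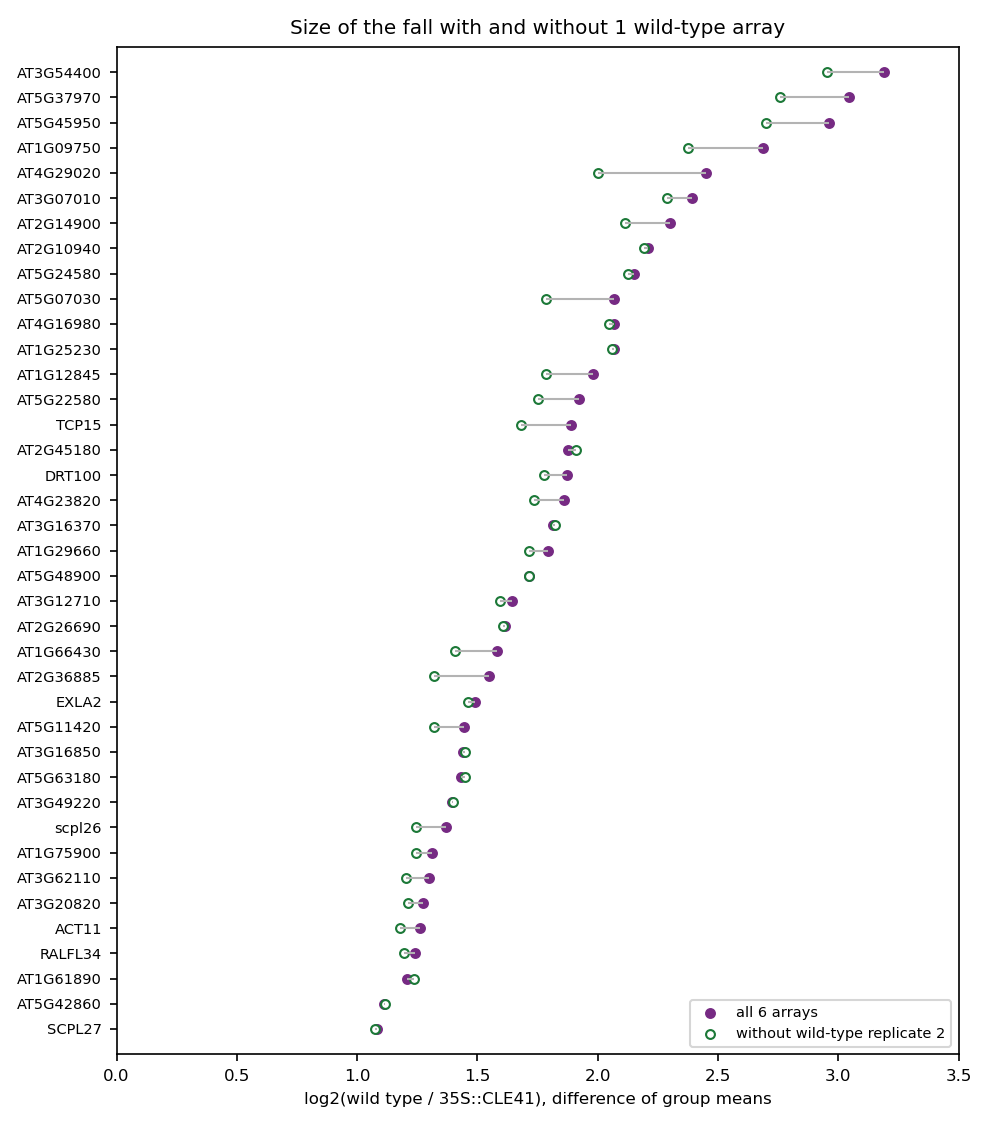
Log2 ratio of wild type over 35S::CLE41 (x axis, difference of group means) for each member (y axis), with all 6 arrays (filled) and without wild-type replicate 2 (open). The open points lie to the left for 31 of 39 members, by most for AT4G29020, and AT3G54400 has the largest ratio either way.

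Members lay on all 5 chromosomes, with 8, 6, 11, 4 and 10 on chromosomes 1 to 5. The share on chromosome 3 was 28.2%, where 20.4% of genes with a probe set of their own lie, and that on chromosome 1 was 20.5% against 25.5%. One stretch of chromosome 5 held several chosen probe sets. AT5G37970 lies with 2 genes between it and AT5G37940 and 2 between it and AT5G38000, a pair of loci that share 1 chosen probe set. That probe set read 3941, 6148 and 4142 in wild type and 793, 664 and 629 in 35S::CLE41. A second one, shared by AT5G37950 and AT5G38010 of the same stretch, read 532, 684 and 660 against 151, 116 and 142. Since single probe sets there take signal from more than 1 locus, how the difference divides among these genes is uncertain. AT5G37980, next to AT5G37970, read 275, 425 and 318 against 125, 98.6 and 101 and fell by 1.63 on the log2 scale (SE 0.18; limma adjusted p = 0.0016). AT5G37960, on the other side, read between 11.1 and 13.2 on all arrays.

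The genes directly beside the members were examined as features outside the rule, a comparison chosen after the members were known. Of 41 such genes with a probe set of their own, 7 (17.1%) were lower and 3 (7.32%) were higher by limma, against 5.56% and 7.05% of all 13356 genes with 1 probe set each. The calls beside members went from 10 to 5 without 35S::CLE41 replicate 2 and to 6 without replicate 3. The median log2 difference of the 41 was -0.09. AT5G45960, beside AT5G45950, fell by 1.48 (SE 0.17; limma adjusted p = 0.0021) from low intensities of 44.3, 70.6 and 48.2 to 18.5, 18.6 and 20.0. AT1G29670, beside AT1G29660, read 3727, 3847 and 2864 in wild type and 1573, 1438 and 1569 in 35S::CLE41 and fell by 1.18 (SE 0.13; limma adjusted p = 0.0019), short of the gap asked by the rule. In the other direction, *IAA30* beside AT3G62110 rose by 2.48 (SE 0.19; limma adjusted p = 0.000544) and *WRKY53* beside AT4G23820 rose by 1.54 (SE 0.32; limma adjusted p = 0.019), a call lost without 35S::CLE41 replicate 2 (limma adjusted p = 0.072). Cross-hybridisation between neighbouring copies was not tested.

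Listed pathway genes were set beside the members. Of 203 genes on 11 lists the probe annotation named 25 with a probe set of their own, and none of these was a member. The other listed genes may be read by probe sets with no entry, chosen ones included. By limma 1 was higher and 6 were lower, where 7.05% and 5.56% of all 13356 genes were. In the list for primary wall and growth *CSLC04* (AT3G28180), which encodes the synthase of the xyloglucan backbone, read 1535, 1467 and 1510 in wild type and 796, 721 and 1018 in 35S::CLE41 and fell by 0.85 (SE 0.14; limma adjusted p = 0.0072). In *COB*, known for oriented cellulose deposition, the log2 level fell by 0.74 (SE 0.11; limma adjusted p = 0.0064), and *EXPA8*, for an expansin, fell by 0.92 (SE 0.18; limma adjusted p = 0.014). The expansin gene *EXPA4* rose by 1.47 (SE 0.22; limma adjusted p = 0.0053). These were 4 of the 6 measured genes of that list. The others, *EXPA9* and *EXPA15*, had log2 differences of 0.28 (SE 0.20) and 0.55 (SE 0.28) and were not called. *CSLC04* and *COB* met the wild-type level, but not the gap.

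*WSD1*, which encodes the wax ester synthase of the stem cuticle, was the one measured gene of the cuticle and epidermis list, and *ARPN*, which encodes a plantacyanin, that of the arabinogalactan and plantacyanin list. *WSD1* read 536, 759 and 389 against 71.2, 52.0 and 70.8, and *ARPN* read 429, 1239 and 378 against 109, 153 and 134. Both fell by limma (adjusted p = 0.000547 and 0.0131) and both had the gap, but not the wild-type level on each array. *SBPASE*, a gene for a phosphatase of the Calvin cycle, dropped by 0.66 (SE 0.11; limma adjusted p = 0.0090) and was the one called of 4 measured photosynthesis genes. Of the measured genes for xylem and secondary wall (4), stomata (4), phloem (2), glucosinolates (2) and phenylpropanoids and flavonoids (1) none was called by limma at an adjusted p of 0.05. The smallest p-values of these lists belonged to *IRX15* of xylan synthesis with a log2 difference of 0.90 (SE 0.39; limma adjusted p = 0.168; 0.40 without wild-type replicate 2), *STOMAGEN*, a stomatal peptide gene, with -1.06 (SE 0.30; limma adjusted p = 0.054; -0.66 without wild-type replicate 2), and *OPS* of the phloem with 0.41 (SE 0.27; limma adjusted p = 0.38). Without wild-type replicates 2 and 3 in turn *OPS* was at 0.71 and 0.14. *BCAT4* of glucosinolate synthesis had 0.60 (SE 0.20; limma adjusted p = 0.084; 0.36 without wild-type replicate 2). *DFR* of flavonoid synthesis had 0.15 (SE 0.13; limma adjusted p = 0.52), and 0.023 and 0.25 without wild-type replicates 1 and 3 in turn. For the list of aquaporins, as for that of the endodermis, the annotation named no gene with a probe set of its own, so their levels are not known here.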

How the data were processed

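RMA and limma are listed, per the submitters' processing notes. The array medians are near-equal, from which normalization by the authors is inferred but not established. Each array's column, as deposited, holds linear intensity, 1 value per probe set. Whether log values from RMA were turned back to this scale is not stated. The array annotation and genome build are not given in the sources used here, and no background or detection call was used. Log2 was taken of each value. Names came from a platform annotation table, updated through the RefSeq gene table (TAIR10.1), which matched 13436 of 13513 probe sets of 1 gene. For genes outside the rule limma 3.58.1 was run under R 4.3.3 (lmFit and eBayes, two-sided, Benjamini-Hochberg over 22746 probe sets, threshold 0.05), a procedure tested on simulated data. A list gene was read from its brightest probe set. Members and lists were chosen with earlier results of these data known.

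The text names the 15 members with the widest gap, the 10 brightest in wild type, 3 on each side of the limit, and up to 4 per role group. From lists it names up to 3 called genes with the smallest p. *TCP15*, AT2G26690, the relatives, the neighbouring genes, *EXPA8* and the 11 remaining members were added after their values were seen. Role groups rested on descriptions that the gene table holds for few members. No sequence or coordinate is given, and promoter motifs were not searched. Alternatives were other scalings, levels and gaps, the replicate block, a filter on dim probe sets, other eBayes settings and leaving out each array. Figures were drawn with matplotlib 3.10.9.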

Additional observations from a re-analysis of the deposited data

How the results depend on the processing

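The rule chose 78 probe sets, and 44 with a wild-type level of 1024, 169 with group means in place of the extreme arrays and 26 with a gap of 3-fold. It chose 90 with arrays shifted to 1 median and 79 with quantile normalization again, which kept 39 and 38 of the 39 members. Without single arrays it chose 80 to 103, and by construction dropped none. Of 286 alternative values for the 26 members named by rule, 283 moved by less than 1 SD and 3 by more, all with arrays shifted to 1 median: AT3G16370, AT5G42860 and *SCPL27*. The replicate block, the filter on dim probe sets and the other eBayes settings leave a member's log2 difference as it was. Their values in this count were therefore fixed in advance. None of the 286 values changed sign. Without single arrays the rule fixed this, since it put every wild-type array above every 35S::CLE41 array. The shift to 1 median lowered each member's difference by the same amount, so it could not reverse a member either. Only the sign under quantile normalization again was not fixed in this way. Over all probe sets 3364 were called, 1803 higher and 1561 lower. With arrays shifted to 1 median 1392 were higher and 1975 lower, the differences moving by -0.079 in the median. Without single arrays the calls ran from 1699 to 2872. Without 35S::CLE41 replicates 1, 2 and 3 in turn they were 1906, 1699 and 1930. Samples that share a number deviated from their genotype's mean with correlations of -0.01, 0.08 and -0.092, so they showed little shared deviation. These values cannot show whether such samples were grown or processed together. With the replicate block 2897 were called. Every alternative that tested it kept the call of a list gene named by rule; *STOMAGEN* (-1.06, adjusted p = 0.0537) gained one in 3 settings and *OPS* without wild-type replicate 2, and the glucosinolate list gained 1 higher call, not *BCAT4*, without wild-type replicate 1. With the arrays shifted to 1 median *DFR* was at 0.07. *CLE41*, *EXPA8* and 5 named genes beside members were put through the same alternatives after seeing the data, and of their calls that of *WRKY53* was lost. With 3 arrays per genotype the number of arrays limits the precision.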

Other observations

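The 37 chosen probe sets that the table does not list, so that their genes are unnamed here, had a median difference of 3.41-fold against 3.46-fold for the members, and a median SD over wild-type arrays of 0.185 on the log2 scale against 0.17. The widest gap among them, 4.22-fold, belonged to a probe set that read 1370, 2860 and 1687 in wild type and 289, 248 and 325 in 35S::CLE41. The next read 2598, 2754 and 3208 against 607, 631 and 557.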
